A study of Homo sapiens with 6 samples.

Results

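The genes described here are 57 genes of mitosis and the spindle, listed by symbol and looked up in an FPKM table of TFK1 cells. All 57 were among the 23569 genes of the table, and all 57 were among the 15353 genes tested, the genes whose FPKM averaged 0.1 or more. TFK1 is a human cell line from a carcinoma of the extrahepatic bile duct. The cells carried a lentiviral pHAGE vector and were kept as stable populations after puromycin selection, and both groups otherwise received no treatment. The groups were oeNC, the negative control (n = 3 libraries), and oeSTUB1 (n = 3), whose vector overexpressed STUB1, an E3 ubiquitin ligase that works with the chaperones HSP70 and HSP90. The number of separate transductions is not given in the sources used here. The study's methods say in general that experiments were independent and repeated 3 times or more, but the labels do not say that the libraries of a group came from separate cultures, so the p-values measure only the spread between these libraries, which may be technical. The comparison asks whether mitotic transcripts differ between oeNC and oeSTUB1, with each oeSTUB1 library taken apart, since oeSTUB1-2 was low for long genes.

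In G2 and M phase, cyclin B1 with CDK1 drives entry into mitosis, and Polo-like and Aurora kinases build the spindle and correct its attachments. Kinetochores, among them the NDC80 complex with its SPC24 and SPC25 subunits, hold the microtubules, and the checkpoint kinases BUB1 and TTK delay CDC20 and the anaphase-promoting complex until all chromosomes are attached. Separase, the product of ESPL1, then cleaves cohesin. Most of these genes are repressed by the DREAM complex and activated later in the cycle by MYBL2 (B-MYB) and FOXM1. These regulators act through CHR elements close to the start of transcription. The summed level of the genes is therefore widely used as a measure of proliferation. In a bulk library, fewer cells in G2 and M and less RNA of these genes per cell cannot be told apart.

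The promoters were searched for motifs, and since the list was chosen as genes of mitosis, a high share is no independent finding. RefSeq windows (GRCh38.p14) from 250 bases before to 50 bases after a start were found for 49 of the 57 members, 63 windows in all, and both strands were searched. A CHR element, written as TTTGAA or TTCGAA on either strand, stood in 63.5% of the 63 member windows and in 16.4% of all 35116 windows. CCAAT stood on either strand in 68.3% of the member windows and 34.6% of all windows, and 49.2% against 6.4% held both motifs. A match describes these letters only and is no measured binding site. The windows of 4 members that the results turn on follow 5′ to 3′ on the gene's strand, from 150 bases before to 30 bases from the start on, with CHR elements and CCAAT boxes (ATTGG on the other strand) in capitals. In the MKI67 window the second CHR element and an ATTGG overlap, so that 1 run of capitals holds both.
MKI67, minus strand, chr10:128126394-128126573: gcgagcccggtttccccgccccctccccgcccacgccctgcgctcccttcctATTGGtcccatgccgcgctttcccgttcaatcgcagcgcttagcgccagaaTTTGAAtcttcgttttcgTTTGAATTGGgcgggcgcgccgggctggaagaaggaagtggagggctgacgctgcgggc
CCNB1, plus strand, chr5:69167000-69167179: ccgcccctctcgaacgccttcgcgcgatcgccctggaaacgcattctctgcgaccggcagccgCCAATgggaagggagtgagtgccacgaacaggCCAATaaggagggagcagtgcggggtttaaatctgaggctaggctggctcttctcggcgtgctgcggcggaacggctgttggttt
BUB1, minus strand, chr2:110678034-110678213: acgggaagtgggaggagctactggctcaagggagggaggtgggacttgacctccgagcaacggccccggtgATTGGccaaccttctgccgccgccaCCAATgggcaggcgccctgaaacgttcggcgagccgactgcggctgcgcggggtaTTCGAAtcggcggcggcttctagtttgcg
SPC25, minus strand, chr2:168890401-168890580: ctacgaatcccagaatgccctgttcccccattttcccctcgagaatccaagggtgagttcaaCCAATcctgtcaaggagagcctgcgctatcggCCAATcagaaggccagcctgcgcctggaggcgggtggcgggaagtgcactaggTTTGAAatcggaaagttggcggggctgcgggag

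Library totals lay between 33106564 and 36744521 fragments. STUB1 itself read 32.9, 33.0 and 30.9 FPKM in oeNC and 61.4, 75.0 and 61.9 FPKM in oeSTUB1, a log2 fold change of 1.03 ± 0.10 (SE) with an adjusted p of 0.000642 (limma). The biliary marker list had signal in 10 of 10 genes, and it summed to 7433–8010 FPKM in the controls and 4736–6275 FPKM in oeSTUB1. KRT19, a defining biliary keratin, read only 0.374 to 0.529 FPKM in oeNC. The 10 markers moved both ways, with log2 fold changes over all libraries from -1.13 to 2.47. At an adjusted p under 0.05 (limma), 2 were called higher and 5 lower, against 7.01% and 6.59% of all tested genes. Of 10 fibroblast markers, 8 were below 0.1 FPKM in every oeNC library and 6 in every oeSTUB1 library, and the summed FPKM was 1.31 to 2.37 and 2.18 to 4.08. The 6 leukocyte markers summed to 31.6–33.5 FPKM in the controls and 24.3–25.4 FPKM in oeSTUB1. The part of these marker differences in the results was not tested.

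Over all 6 libraries the mitotic genes of oeSTUB1 differed little from oeNC. With limma on log2(FPKM + 0.1) and Benjamini-Hochberg adjustment over the 15353 genes, 0 members were called higher and 1 of 57 lower in oeSTUB1 at an adjusted p under 0.05, against 7.01% of all tested genes called higher and 6.59% called lower. The 1 called member was BUB1, and 2 higher and 6 lower members had an unadjusted p under 0.05. Unadjusted and limma-voom counts, here and below, have no share of all tested genes beside them. They describe the listed genes only and cannot be read as a lean in either direction. The limma-voom fit on recovered fragments likewise called 0 higher and 1 lower. The log2 fold changes, here always oeSTUB1 minus oeNC on the log2(FPKM + 0.1) scale, ran from -0.44 to 0.39. They were positive for 26 members and negative for 31, with a median of -0.003, beside a median of 0.02 over all tested genes. No member had an absolute log2 fold change over 1, while 5.20% of all tested genes were called with a change over 1. For all 57 members the gene's own 95% interval lay between -1 and 1, and for 40 of them between -0.5 and 0.5. The groups did not overlap in 9 members that were higher in oeSTUB1 (15.8%) and in 6 that were lower (10.5%), against 21.5% and 17.3% of all tested genes.

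**Figure D1:**
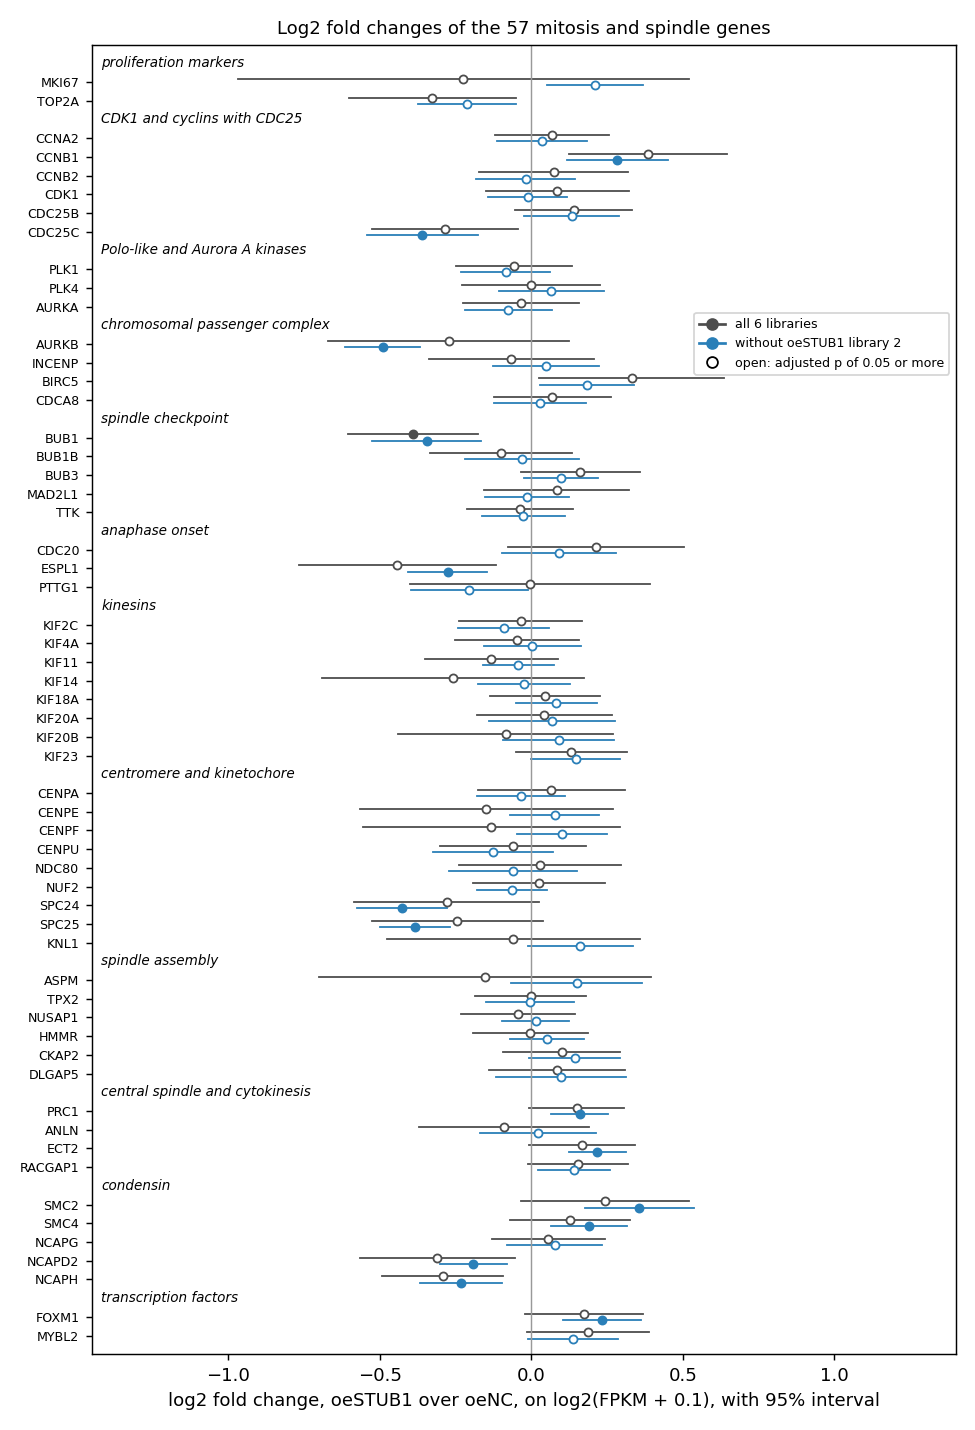
Log2 fold change (horizontal axis, oeSTUB1 over oeNC on log2(FPKM + 0.1)) of the 57 members by role, with 95% intervals, from all 6 libraries (grey) and without oeSTUB1-2 (blue), where filled points have an adjusted p under 0.05 in limma. Only BUB1 is filled in grey, 14 members are filled in blue, and the blue intervals of long genes such as MKI67 and ASPM are far shorter than the grey ones.

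The 3 oeSTUB1 libraries did not show the same picture of these genes. In oeSTUB1-1 the median member stood 0.11 above the oeNC mean on the log2 scale, in oeSTUB1-2 0.01 above and in oeSTUB1-3 0.02 below it. Of 57 members, 21 deviated in the same direction in all 3 libraries. In 18 members oeSTUB1-2 deviated one way and the other 2 libraries the opposite way. Neither count is set beside a share of all tested genes, so both describe the members only. Members were divided at their median length, 3669 bases as implied by the FPKM steps, into 29 long and 28 short genes. In oeSTUB1-2 the median deviation was -0.29 for the long and 0.13 for the short members, a difference of -0.42. That difference was 0.09 in oeSTUB1-1 and 0.05 in oeSTUB1-3, and -0.04 to 0.02 in the oeNC libraries, each set against the mean of the other 2. Of the long members, 20 of 29 lay below the oeNC mean in oeSTUB1-2, and of the short ones 5 of 28.

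All tested genes showed the same order in oeSTUB1-2. At the same cut, its median deviation was -0.16 in 7740 long and 0.20 in 7613 short genes, a difference of -0.36. The Spearman correlation of deviation with length was -0.69 over the 57 members and -0.37 over the 15353 genes, which share 1 library and its depth and are given as a description. In the 6 members of 8000 bases or more the median deviation in oeSTUB1-2 was -0.60, beside -0.36 in the 2240 genes of that length. These 6 include SMC2, whose longest annotated transcript has only 5992 bases. In the 7 members under 2000 bases it was 0.26, beside 0.30 in 3605 genes. In oeSTUB1-1 and oeSTUB1-3 the same 6 longest members had medians of 0.22 and 0.09. What made long genes low in oeSTUB1-2 was not tested.

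**Figure D2:**
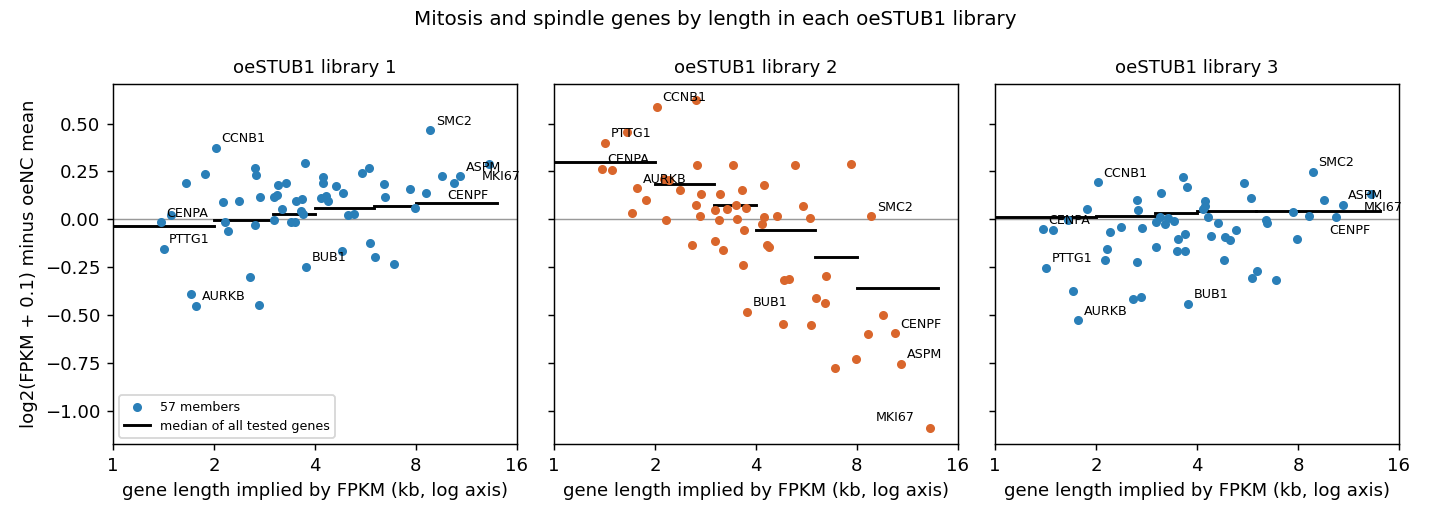
Difference of log2(FPKM + 0.1) from the oeNC mean (vertical axis) against gene length in kb (log axis) for the 57 members (points) in each oeSTUB1 library, with the median of all tested genes in 6 length ranges (black lines). In oeSTUB1-2 the members descend from PTTG1 and CCNB1 above 0 to MKI67 at the bottom, and in the other libraries no such descent is seen.

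MKI67, the gene of the Ki-67 antigen that coats mitotic chromosomes, was the longest member. It read 59.97, 59.4 and 53.9 FPKM in oeNC and 70.5, 27.0 and 63.1 FPKM in oeSTUB1. The second oeSTUB1 library stood at 46.7% of the oeNC mean, on 11815 fragments, and the other 2 lay above every oeNC library. Its log2 fold change was -0.22 ± 0.32 (SE) over all libraries and 0.21 ± 0.07 without oeSTUB1-2, with adjusted p of 0.683 and 0.0574 (limma), so that this proliferation marker changed sign with 1 library and passed the test in neither fit. TOP2A, which encodes topoisomerase IIα, was the most abundant member, at 236, 236 and 215 FPKM in oeNC and 211, 156 and 185 FPKM in oeSTUB1. All 3 oeSTUB1 libraries were below all oeNC libraries, and the log2 fold change of -0.33 ± 0.12 (SE) had an adjusted p of 0.114 (limma).

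Entry into mitosis gave values on both sides. CCNB1, the gene of cyclin B1, read 109, 106 and 96.8 FPKM in oeNC and 135, 156 and 119 FPKM in oeSTUB1, with no overlap of the groups. Its log2 fold change was the highest of the members, 0.39 ± 0.11 (SE), with an adjusted p of 0.0604 (limma). Without oeSTUB1-2 it was 0.28 ± 0.07 (SE), with an adjusted p of 0.0250 (limma), and CCNB1 rose. Its partner kinase CDK1 read 57.8, 57.3 and 52.1 FPKM in oeNC and 55.1, 67.7 and 55.3 FPKM in oeSTUB1, within the range of the controls except for oeSTUB1-2. CCNB2, a second B-type cyclin and 1 of the 3 shortest members, was likewise above every oeNC library only in oeSTUB1-2, at 93.0 FPKM against 71.3 to 83.8. CDC25C, a phosphatase that activates CDK1, read 10.1, 9.003 and 8.88 FPKM in oeNC and 7.54, 8.49 and 6.96 FPKM in oeSTUB1. Each oeSTUB1 library lay below each control, and CDC25C fell by 0.36 ± 0.08 (SE) on the log2 scale without oeSTUB1-2 (adjusted p = 0.0156, limma), while the value over all libraries, -0.28, did not pass (adjusted p = 0.114). Exons of CDC25C overlap those of FAM53C on the opposite strand, 20 of the 57 members have some overlap of this kind, and the strand setting of the counting is not given in the sources used here.

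The Polo-like and Aurora A kinases gave no call. PLK1, which acts from mitotic entry to cytokinesis, read 94.0, 88.8 and 84.2 FPKM in oeNC and 87.9, 88.7 and 79.9 FPKM in oeSTUB1. AURKA, the kinase of the spindle poles, read 58.1, 56.8 and 52.9 FPKM in oeNC and 55.7, 57.8 and 50.5 FPKM in oeSTUB1. In both genes the groups overlapped, with log2 fold changes of -0.06 ± 0.08 and -0.04 ± 0.08 (SE) and adjusted p of 0.683 and 0.815 (limma). PLK4, which starts centriole duplication, had a log2 fold change of -0.002, and the 95% intervals of the 3 kinases lay between -0.25 and 0.23. None of them had an unadjusted p under 0.05, and limma-voom called 0.

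Within the chromosomal passenger complex, which corrects faulty attachments and then moves to the spindle midzone, the kinase subunit AURKB read 50.04, 52.7 and 48.3 FPKM in oeNC and 36.8, 56.3 and 34.8 FPKM in oeSTUB1. Here oeSTUB1-2 was the highest of all 6 libraries and the other 2 were far below the controls. Over all libraries the log2 fold change was -0.27 ± 0.17 (SE), with an adjusted p of 0.330 (limma). Without oeSTUB1-2, AURKB fell by 0.49 ± 0.05 (SE) on the log2 scale, the largest difference among the members, with an adjusted p of 0.000982 (limma). BIRC5, the gene of survivin, read 46.6, 44.4 and 42.0 FPKM in oeNC and 53.3, 68.3 and 47.6 FPKM in oeSTUB1. Its groups did not overlap, but the log2 fold change of 0.33 ± 0.13 (SE) did not pass the test (adjusted p = 0.139, limma), nor did the 0.18 found without oeSTUB1-2 (adjusted p = 0.0779). INCENP and CDCA8, the scaffold and the borealin subunit, had log2 fold changes of -0.07 and 0.07.

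**Figure D3:**
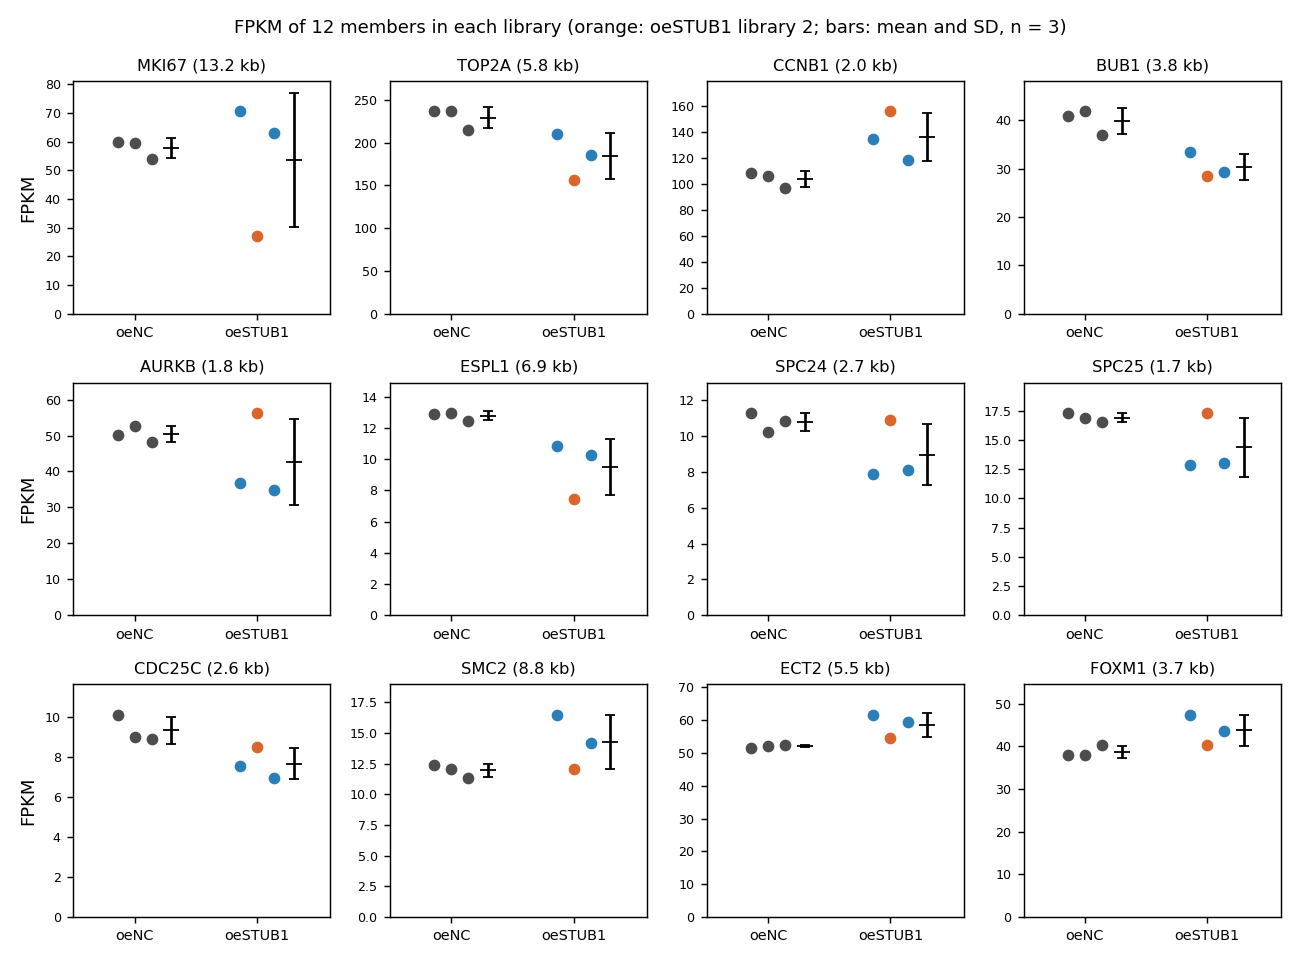
FPKM (vertical axes, from 0) of 12 members in each oeNC (grey) and oeSTUB1 library (blue, oeSTUB1-2 in orange), with the mean and SD of the 3 libraries beside the points. AURKB, SPC24 and SPC25 have oeSTUB1-2 at or above the level of the controls and the other 2 oeSTUB1 libraries below them, MKI67 has the reverse, and in BUB1, TOP2A, ESPL1 and CDC25C all 3 lie below the controls.

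BUB1, the checkpoint kinase that recruits other checkpoint proteins to kinetochores, was the 1 member that fell over all 6 libraries. It read 40.8, 41.9 and 36.9 FPKM in oeNC and 33.5, 28.4 and 29.3 FPKM in oeSTUB1, on 3543 to 5462 fragments, and each oeSTUB1 library lay below each control. Its log2 fold change was -0.39 ± 0.09 (SE), with an adjusted p of 0.0299 (limma). BUB1 lies on chromosome 2, where the median log2 fold change of 1031 tested genes was -0.21 over all libraries and 797 of them were negative, and the part of this in the BUB1 value was not tested. The adjusted p was 0.0165 without oeSTUB1-2, 0.0832 without oeSTUB1-3, and 0.129, 0.141 and 0.0573 without oeNC-1, oeNC-2 and oeNC-3 in turn (limma). The other checkpoint genes BUB1B, BUB3, MAD2L1 and TTK had log2 fold changes between -0.10 and 0.16, and none passed the test in any fit that left out a library.

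Of the genes of anaphase onset, ESPL1 had the lowest log2 fold change of all members. It read 12.9, 12.97 and 12.5 FPKM in oeNC and 10.8, 7.43 and 10.2 FPKM in oeSTUB1. The groups did not overlap, and oeSTUB1-2 was the lowest library for this gene of 6879 bases. The log2 fold change was -0.44 ± 0.14 (SE) over all libraries (adjusted p = 0.0784, limma). Without oeSTUB1-2, ESPL1 fell by 0.28 ± 0.06 (SE) on the log2 scale (adjusted p = 0.0116, limma). PTTG1, the gene of securin, which holds separase inactive, read 87.2, 80.8 and 71.5 FPKM in oeNC and 71.4, 105 and 66.7 FPKM in oeSTUB1. It is the second shortest member, and oeSTUB1-2 was the highest of all libraries while the other 2 were below the controls. CDC20, the activator of the anaphase-promoting complex, read 79.0, 72.1 and 67.7 FPKM in oeNC and 82.9, 99.9 and 72.5 FPKM in oeSTUB1, with a log2 fold change of 0.21 ± 0.13 (SE) and an adjusted p of 0.301 (limma).

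None of the 8 kinesins, the motors of spindle assembly and cytokinesis, was called in either fit. Over all libraries KIF14 had the largest absolute value, -0.26 ± 0.19 (SE), which became -0.02 without oeSTUB1-2. It read 11.9, 12.6 and 12.2 FPKM in oeNC and 12.7, 7.32 and 11.4 FPKM in oeSTUB1, with oeSTUB1-2 far below the other 5 libraries. Without oeSTUB1-2 the 8 kinesins lay between -0.09 and 0.15. Over all libraries 0 of them had an unadjusted p under 0.05, and limma-voom called 0.

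At the kinetochore, the 4 subunits of the NDC80 complex gave the values that follow, and differences between subunits were not tested. SPC24 read 11.3, 10.3 and 10.8 FPKM in oeNC and 7.86, 10.9 and 8.12 FPKM in oeSTUB1. SPC25 read 17.3, 16.9 and 16.5 FPKM in oeNC and 12.8, 17.3 and 13.01 FPKM in oeSTUB1. In both, oeSTUB1-2 was at the level of the controls and the other 2 libraries were below all of them. Without oeSTUB1-2, SPC24 fell by 0.43 ± 0.06 and SPC25 fell by 0.38 ± 0.05 (SE) on the log2 scale, with adjusted p of 0.00362 and 0.00209 (limma). Over all libraries neither passed (adjusted p = 0.202 and 0.227). NDC80 and NUF2, the subunits that bind the microtubule, read 9.14 to 12.3 and 18.4 to 22.1 FPKM in oeSTUB1 and 10.5 to 10.7 and 18.6 to 19.7 FPKM in oeNC, with log2 fold changes without oeSTUB1-2 of -0.06 and -0.06 that did not pass. CENPF, at 39.8, 38.9 and 37.3 FPKM in oeNC and 44.2, 25.6 and 38.9 FPKM in oeSTUB1, was again low only in oeSTUB1-2. CENPA, the centromeric histone and the shortest member, read 25.2, 26.2 and 23.1 FPKM in oeNC and 24.5, 29.8 and 23.9 FPKM in oeSTUB1, high only in oeSTUB1-2.

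The 6 spindle assembly genes gave no call in either fit, with 0 unadjusted p under 0.05 over all libraries and 0 calls by limma-voom. ASPM, which works at spindle poles and is the second longest member, read 22.0, 23.7 and 19.2 FPKM in oeNC and 25.1, 12.7 and 22.7 FPKM in oeSTUB1. Its log2 fold change was -0.15 ± 0.24 (SE) over all libraries and 0.15 ± 0.09 without oeSTUB1-2. TPX2, the activator of Aurora A, had -0.002 and -0.004.

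Of the 4 genes of the central spindle and cytokinesis, 2 passed the test without oeSTUB1-2, both higher. In that fit 14.8% of all tested genes were called higher, and a count over 4 genes is no result about the group. Over all libraries 0 passed, 0 had an unadjusted p under 0.05 and limma-voom called 0. ECT2, the exchange factor that activates RhoA at the cleavage furrow, read 51.7, 52.3 and 52.4 FPKM in oeNC and 61.7, 54.6 and 59.6 FPKM in oeSTUB1. All 3 oeSTUB1 libraries lay above the narrow range of the controls, and ECT2 rose by 0.22 ± 0.04 (SE) on the log2 scale without oeSTUB1-2 (adjusted p = 0.00860, limma), while 0.17 over all libraries did not pass (adjusted p = 0.183). PRC1, the microtubule bundler of the midzone, named here after its values were seen, rose by 0.16 ± 0.04 (SE) without oeSTUB1-2 (adjusted p = 0.0269, limma). RACGAP1 and ANLN were not called in either fit.

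Condensin, which compacts the chromosomes, had subunits called in both directions without oeSTUB1-2, and differences between subunits were not tested. In that fit 14.8% of all tested genes were called higher and 12.0% lower. The core ATPase subunit SMC2 read 12.4, 12.1 and 11.4 FPKM in oeNC and 16.5, 12.0 and 14.2 FPKM in oeSTUB1. In oeSTUB1-2, SMC2 lay within the range of the controls. Its length was 8839 bases by the FPKM steps, but 5992 for its longest GENCODE v29 transcript. Without oeSTUB1-2, SMC2 rose by 0.36 ± 0.08 (SE) on the log2 scale (adjusted p = 0.0149, limma). SMC4, its partner, also named after its values were seen, rose by 0.19 ± 0.05 (SE) in that fit (adjusted p = 0.0384). The condensin I subunits NCAPD2 and NCAPH fell by 0.19 ± 0.05 and fell by 0.23 ± 0.06 (SE), with adjusted p of 0.0235 and 0.0242 (limma). NCAPD2 read 80.2, 80.5 and 75.3 FPKM in oeNC and 70.0, 53.7 and 67.7 FPKM in oeSTUB1. NCAPH read 16.4, 15.5 and 15.2 FPKM in oeNC and 13.7, 11.8 and 12.999 FPKM in oeSTUB1. In neither did the groups overlap, yet over all libraries none of the 4 was called (adjusted p = 0.0627 to 0.358). The third condensin I subunit, NCAPG, had a log2 fold change of 0.08 without oeSTUB1-2 that did not pass. Exons of SMC4 overlap IFT80 and TRIM59, and those of NCAPD2 overlap MRPL51, on the opposite strand.

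The 2 transcription factors of the list were both higher in value. FOXM1 read 37.9, 37.9 and 40.2 FPKM in oeNC and 47.4, 40.3 and 43.5 FPKM in oeSTUB1, with the lowest oeSTUB1 library just above the highest control. FOXM1 rose by 0.23 ± 0.05 (SE) without oeSTUB1-2 (adjusted p = 0.0205, limma), with 0.17 over all libraries (adjusted p = 0.211), and its exons overlap ITFG2 on the opposite strand. MYBL2 read 66.6, 66.2 and 62.4 FPKM in oeNC and 76.4, 79.3 and 67.2 FPKM in oeSTUB1. Its groups did not overlap, and its log2 fold change was 0.19 ± 0.09 over all libraries and 0.14 ± 0.06 (SE) without oeSTUB1-2, neither past the test.

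**Figure D4:**
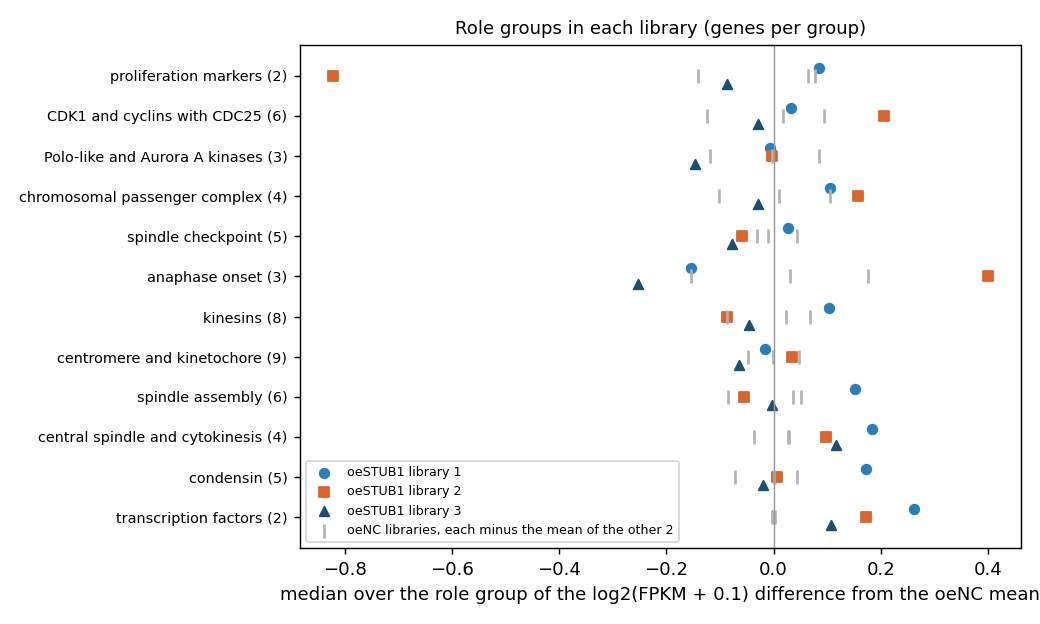
Median difference of log2(FPKM + 0.1) from the oeNC mean (horizontal axis) for each role group in each oeSTUB1 library, with oeNC libraries against the mean of the other 2 as grey ticks. Orange squares (oeSTUB1-2) are at -0.82 for the 2 proliferation markers and at 0.40 for the 3 genes of anaphase onset, of which ESPL1 stood at -0.78. The transcription factors and the central spindle and cytokinesis genes have all 3 oeSTUB1 libraries above 0.

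Leaving out oeSTUB1-2 thus raised the calls from 1 to 14 of 57 members, 6 higher (10.5%) and 8 lower (14%). Among all tested genes the calls rose as well, to 14.8% higher and 12.0% lower, so the members' shares were near the background. The median standard error of the members went from 0.10 to 0.06, and their median log2 fold change was 0.03, beside 0.03 over all tested genes. A second way to handle length kept all 6 libraries and removed from each a smooth trend of its deviation with length. It called 3 members higher (5.26%) and 8 lower (14%), against 10.9% and 10.7% of all tested genes. Of these 11 members, 10 were called in the fit without oeSTUB1-2 too, each in the same direction: BUB1, CDC25C, ESPL1, NCAPD2, NCAPH, SPC24 and SPC25 lower and CCNB1, ECT2 and SMC2 higher. TOP2A was called lower only with the length correction (-0.31, adjusted p = 0.0295, limma), and AURKB, FOXM1, PRC1 and SMC4 only without oeSTUB1-2. Both fits use the same libraries, so this overlap is no independent check. A CHR element stood in the window of 4 of the 5 higher members with a window (6 were called) and of 5 of the 8 lower ones, beside 37 of the 49 members with a window, and no difference between directions was tested.

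Chromosomes moved with some of these calls. Of the 8 lower members without oeSTUB1-2, BUB1, SPC25 and NCAPH lie on chromosome 2, where the median log2 fold change of 1031 tested genes was -0.18 in that fit, and SMC2 lies on chromosome 9, where that of 604 genes was 0.17. Relative to the chromosome's median, BUB1 stood at -0.17, SPC25 at -0.21, NCAPH at -0.05 and SMC2 at 0.19. For AURKB, CDC25C, SPC24 and ESPL1, whose chromosomes 17, 5, 19 and 12 had medians between -0.04 and 0.08, the values relative to the chromosome were -0.45, -0.44, -0.43 and -0.32. The part of the chromosome-wide differences in these values was not tested.

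Other genes of the cycle were listed beside the members. Of 97 further genes of kinetochore, spindle, cohesin, mitotic control and cytokinesis, 3 were higher and 0 lower over all libraries (12 and 5 at an unadjusted p under 0.05, 2 and 0 by limma-voom), with a median of 0.05, where 7.01% of all tested genes were called higher and 6.59% lower. They were CENPN and ZWILCH of the kinetochore, at 0.33 ± 0.08 and 0.27 ± 0.07 (SE), and CDC26, a small subunit of the anaphase-promoting complex, at 0.58 ± 0.15, with adjusted p of 0.0401, 0.04998 and 0.0365 (limma). Without oeSTUB1-2, 7 of the 97 were higher and 6 lower, against 14.8% and 12.0% of all tested genes. Of 30 genes of DNA replication, 1 was higher, the clamp loader subunit RFC3 (0.37 ± 0.08), and 0 lower (4 and 3 unadjusted, 1 and 0 by limma-voom). Of 30 tested regulators (33 listed), 3 were higher and 0 lower (3 and 3 unadjusted, 3 and 1 by limma-voom), a count near the 7.01% called higher of all tested genes. CDKN1A, the gene of the CDK inhibitor p21, rose from 25.7, 26.2 and 24.9 FPKM in oeNC to 33.2, 36.6 and 33.7 FPKM in oeSTUB1, with no overlap and a log2 fold change of 0.43 ± 0.07 (SE) (adjusted p = 0.00860, limma). CCNE2, the cyclin E2 gene of the G1 to S transition, rose from 2.20, 2.36 and 2.51 FPKM to 3.64, 3.41 and 3.25 FPKM (0.53 ± 0.11, adjusted p = 0.0165, limma). TFDP1, the partner of E2F factors, rose by 0.38 ± 0.08 (SE) (adjusted p = 0.0165, limma).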

How the data were processed

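RNA-seq of 6 TFK1 libraries was analysed, with groups and replicate numbers from the labels. The authors deposited FPKM values for 23569 genes. The submitters' processing notes name fastp 0.20.1, HISAT2 2.1.0, HTSeq 0.11.2, R 3.2.0, DESeq2 1.22.2 and GRCh38.p13, without their roles. The annotation and strand setting are not given in the sources used here. Whole fragments were recovered from the FPKM steps for 100% of genes, with recomputed values within 4.9e-06, taking the smallest gene length that fits all libraries. Lengths and fragments can therefore be too low by a common divisor, for KIF23 probably so (1884 bases, longest GENCODE v29 transcript 3723). Other lengths stood above the longest GENCODE v29 transcript, among them SMC2 (8839 against 5992), INCENP (6477 against 3964) and NCAPH (6043 against 2952). Libraries of a group differed beyond counting noise (chi-square per degree of freedom 3.53 to 85.1).

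The model, from limma 3.58.1 (R 4.3.3), was lmFit with a trended eBayes and two-sided tests, and its input was log2 of FPKM plus a pseudocount of 0.1. It covered 15353 genes, those averaging 0.1 FPKM or more, and p-values were adjusted over these by Benjamini-Hochberg. Calls had an adjusted p under 0.05. The scripts were tested on simulated data. The members and lists were chosen with earlier results of these data known. Named members were 10 anchors (MKI67, TOP2A, CCNB1, CDK1, CDC20, PLK1, AURKA, AURKB, BUB1, FOXM1), called members, the largest absolute change of each role, the 10 largest changes among members whose call changed without oeSTUB1-2, and the 3 longest and 3 shortest; from the other lists, up to 4 called genes. Gene positions and overlaps came from GENCODE v29, and chromosomes of all genes from RefSeq (GRCh38.p14). KIF4A and PTTG1 have near-identical copies, KIF4B and PTTG2, listed below 1 FPKM in every library. Alternatives covered the pseudocount, filter, scaling, trend, replicate block, each library left out, a lowess length correction (span 0.3) and limma-voom on recovered fragments. Some items are not reported here.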

Additional observations from a re-analysis of the deposited data

How the results depend on the processing

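Member calls were few and moved with single libraries. A typical member had a standard error of 0.10 on the log2 scale over 3 libraries a group, and values as large as -0.44 (ESPL1) and 0.39 (CCNB1) were not called. Members called higher numbered 0 with all libraries and 0 to 6 when 1 library was left out, and members called lower numbered 1, and 0 to 8. Quantile normalization called 1 higher and 2 lower, the length correction 3 and 8, eBayes without trend 0 lower, and a required absolute log2 fold change over 1 left 0 lower. BUB1 was lost without oeNC-1, oeNC-2, oeNC-3 or oeSTUB1-3 (adjusted p = 0.129, 0.141, 0.0573 and 0.0832, limma) and without trend (0.0647). With the replicate block 0 members were lower and BUB1 had an adjusted p of 0.0588 (limma). Deviations of same-numbered libraries correlated at -0.05, -0.05 and 0.06, which shows no pairing by number. With 3 libraries a group, and oeSTUB1-2 unlike the others for long genes, these values cannot exclude one. The median over the members stayed within the spread between libraries in every alternative.

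Alternatives to the fit without oeSTUB1-2 were chosen after seeing the data. Median-ratio scaling then called 3 members higher in place of 6, and eBayes without trend called 0 higher and 4 lower in place of 8. Leaving out oeSTUB1-1 as well gave 1 higher and 7 lower, and leaving out oeSTUB1-3 as well gave 9 higher and 3 lower, where the lone oeSTUB1 library is assumed to vary like the controls. The gap between long and short members in oeSTUB1-2 was -0.60 with the longest and shortest members only (3 equal parts by length) and -0.25 with the longest annotated transcript.

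Directions turned only in members that were not called. The ranges that follow cover the 26 named members. Others turned too, among them NDC80, NUF2 and HMMR, which each kept direction in 12 of 16 alternatives. When 1 library was left out, the log2 fold change ranged from -0.48 to 0.21 for MKI67, -0.34 to 0.15 for ASPM, -0.29 to 0.10 for CENPF, -0.012 to 0.14 for CDK1, -0.077 to 0.021 for AURKA, -0.033 to 0.12 for CENPA, -0.20 to 0.12 for PTTG1 and -0.019 to 0.14 for CCNB2. CENPA and CCNB2 also turned with quantile normalization (-0.0026 and -0.014) and the length correction (-0.016 and -0.0054). The causes were not tested. Over the 26 named members and STUB1 under 16 alternatives, 387 of the values kept direction and side of the threshold, 24 passed it, 6 lost it and 15 turned.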
